A study of Mus musculus with 8 samples.

Results

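The 10 genes described here are Notch1, Notch2, Notch3 and Notch4, which encode the receptors of the Notch pathway, Jag1, Jag2, Dll1 and Dll4, which encode its ligands, and Hes1 and Hey1, which encode transcriptional repressors that the pathway induces. They were chosen by name, and all 10 were found among the 32728 genes of the count table. A filter on low counts kept 9 of them among the 16719 genes that were tested, and Hey1 did not pass it. RNA came from organoids labelled as mouse colon cancer, cultures of epithelial tumour cells that grow as hollow or solid bodies in a gel. They were of 2 lines called apsMC706 and CTO19. CTO19 held near-absent colon markers and abundant squamous keratins, with values given below. Both lines were on the C57BL/6 background and carried Apc, p53 and Smad4 knockouts made with Crispr, so no group was free of these mutations. In EM, the control medium, each line grew for 3 days with B27, noggin (a BMP antagonist), Galunisertib (an inhibitor of the TGF-beta receptor) and EGF, and in noEGF it grew for 7 days after EGF had been withdrawn. Each of the 4 groups of line and medium had 2 libraries.

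Notch signalling passes between touching cells. A Jagged or Delta ligand on a cell pulls on a Notch receptor on its neighbour, the receptor is cut first by an ADAM protease and then by gamma-secretase, and the freed intracellular part joins RBPJ and Mastermind proteins in the nucleus to switch on genes such as Hes1. In the intestine this keeps progenitors dividing and holds back Atoh1, the regulator of the secretory fate. Notch4 and Dll4 are best known from blood vessels and Notch3 from the pericytes and smooth muscle around them.

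Library totals ranged from 35650262 to 38953838 counts, so 3 counts, the most that a count of 0 allows, were 0.0745 to 0.0868 CPM (counts scaled to a library of 1e6). The mitochondrial genome gave 2.94% to 3.68% of the EM counts and 4.13% to 5.19% of the noEGF counts. Transcripts of the targeted genes were present in every library (Apc 59.8 to 198 CPM, Trp53 13.0 to 33.3 CPM, Smad4 10.8 to 39.9 CPM), and a transcript level does not check an edit. EM went with 3 days and noEGF with 7, and the line went with the labelled sex (apsMC706 female, CTO19 male), so medium and time, and line and sex, cannot be told apart. The design text treats the 2 lines as biological replicates of the same set of mutations. The labels do not say that the replicates of a group were separate cultures, and p-values measure the spread between these libraries, which may be technical. Each level below is in CPM scaled by TMM factors, and each test is edgeR's quasi-likelihood F-test, two-sided, with p-values adjusted by the Benjamini-Hochberg method over all 16719 genes and a threshold of 0.05.

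Notch3, Dll4 and Hes1 were the members that rose in noEGF when both lines were fitted together. The promoter table of RefSeq (GRCm38.p6) held entries for 8 of the 10 members and none for Hes1 and Hey1. The 250 bases before the annotated start are shown for Notch3 and Dll4 because these were the receptor and the ligand that rose in both lines. Capitals mark GGGCGG, the GC box, read on either strand. The Notch3 window is chr17:32166891-32167140 on the minus strand and the Dll4 window is chr2:119325534-119325783 on the plus strand.
Notch3: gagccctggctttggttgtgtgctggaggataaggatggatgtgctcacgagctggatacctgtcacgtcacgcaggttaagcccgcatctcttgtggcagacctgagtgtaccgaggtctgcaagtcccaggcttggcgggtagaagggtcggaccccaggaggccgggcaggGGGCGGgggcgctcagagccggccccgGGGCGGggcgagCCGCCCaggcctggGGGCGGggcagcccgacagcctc
Dll4: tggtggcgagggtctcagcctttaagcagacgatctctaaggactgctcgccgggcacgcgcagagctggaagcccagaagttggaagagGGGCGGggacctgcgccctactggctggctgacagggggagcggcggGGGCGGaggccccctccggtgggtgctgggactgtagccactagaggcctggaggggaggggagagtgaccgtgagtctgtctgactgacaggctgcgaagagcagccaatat
The Notch3 window was 68.8% G and C and held 4 GC boxes, and the Dll4 window was 65.6% G and C and held 2. The members whose changes had opposite signs in the lines were split. Notch1, Notch2 and Jag2 held 5 GC boxes each, and Jag1 and the windows of Dll1 held 0. Notch4 also held 0, and 32.7% of 32817 such windows of all genes held at least 1. The letters TGGGAA, the core of the sequence that RBPJ binds, were in none of the windows of the 8 members on either strand, and 21.6% of all windows held them. CACNAG, the N box read by Hes proteins, had 2 matches in Notch3 and 1 in Dll4, with 36.7% of all windows holding at least 1. No match of a motif overlapped a match of another in the printed windows, and a match is a description of the letters only.

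Among the receptors, Notch3 (ENSMUSG00000038146, chromosome 17, 32120820 to 32166852 in mm10) had the largest difference between media. In apsMC706 its 2 EM libraries held 0.212 and 0.191 CPM, which were 8 and 7 counts, and its noEGF libraries held 6.73 and 7.32 CPM, which were 247 and 277 counts. CTO19 held 27.5 and 27.0 CPM in EM and 86.6 and 100.3 CPM in noEGF. The groups lay apart in each line, and CTO19 in EM already stood above apsMC706 in noEGF. Notch3 rose 34.4-fold in apsMC706 (log2 fold change 5.10, SE 0.221, adjusted p = 5.59e-11) and 3.43-fold in CTO19 (1.78, SE 0.0667, adjusted p = 2.77e-11). The responses differed by -3.33 (CTO19 minus apsMC706, SE 0.275, adjusted p = 1.35e-07). In apsMC706 the absolute change of Notch3 was at percentile 99.6 of all tested genes, and in CTO19 at percentile 91.5.

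Notch1 and Notch2 moved in opposite directions in the lines. Notch2 (ENSMUSG00000027878, chromosome 3, 98013527 to 98150361), with Notch1 a main receptor of intestinal progenitors, was at 152 and 153 CPM in EM and 117 and 114 CPM in noEGF in apsMC706. In CTO19 it was at 117 and 95.9 CPM in EM and 142 and 139 CPM in noEGF. The groups did not overlap within either line, with EM the higher group in apsMC706 and the lower in CTO19. Notch2 fell by 0.40 on the log2 scale in apsMC706 (SE 0.0769, adjusted p = 0.00129) and rose by 0.40 in CTO19 (SE 0.0774, adjusted p = 0.00144), a difference between the lines of 0.80 (SE 0.109, adjusted p = 0.000199).

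Notch1 (ENSMUSG00000026923, chromosome 2, 26457903 to 26516663) was at 8.68 and 9.12 CPM in EM and 6.63 and 7.10 CPM in noEGF in apsMC706. CTO19 held 70.2 and 56.7 CPM in EM and 89.5 and 82.6 CPM in noEGF. Every CTO19 library was thus above every apsMC706 library. Notch1 rose 1.36-fold in CTO19 (0.44 on the log2 scale, SE 0.0884, adjusted p = 0.00178). In apsMC706 it fell 1.30-fold (-0.37, SE 0.146), with an adjusted p of 0.0476 that lay close to the threshold. That call was lost with DESeq2 size factors (adjusted p = 0.0946), with upper-quartile factors (0.0883), with a stricter filter (0.172) and with limma-voom (0.130). Leaving out a library ended it too, for EM replicate 1 (0.0782) and 2 (0.142) and noEGF replicate 1 (0.154) and 2 (0.0775) of apsMC706, and for noEGF replicate 1 (0.190) and 2 (0.187) of CTO19. The difference between the lines' responses was 0.81 (SE 0.170, adjusted p = 0.00295). Exons of Notch1 overlap those of 0610009E02Rik on the other strand over 1068 bases, and that gene had 2 to 11 counts in each library.

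Notch4 (ENSMUSG00000015468, chromosome 17, 34564268 to 34588503), the receptor of vascular endothelium, did not follow Notch3. In apsMC706 it was at 36.3 and 37.5 CPM in EM and 36.9 and 37.1 CPM in noEGF, with overlapping groups (log2 fold change 0.00, SE 0.0667, adjusted p = 0.992). In CTO19 it was lower in every library, at 11.3 and 11.6 CPM in EM and 6.59 and 5.19 CPM in noEGF. There it fell 1.95-fold (-0.96, SE 0.0958, adjusted p = 4.87e-07), and the responses differed by -0.96 (SE 0.117, adjusted p = 5.72e-06).

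**Figure D1:**
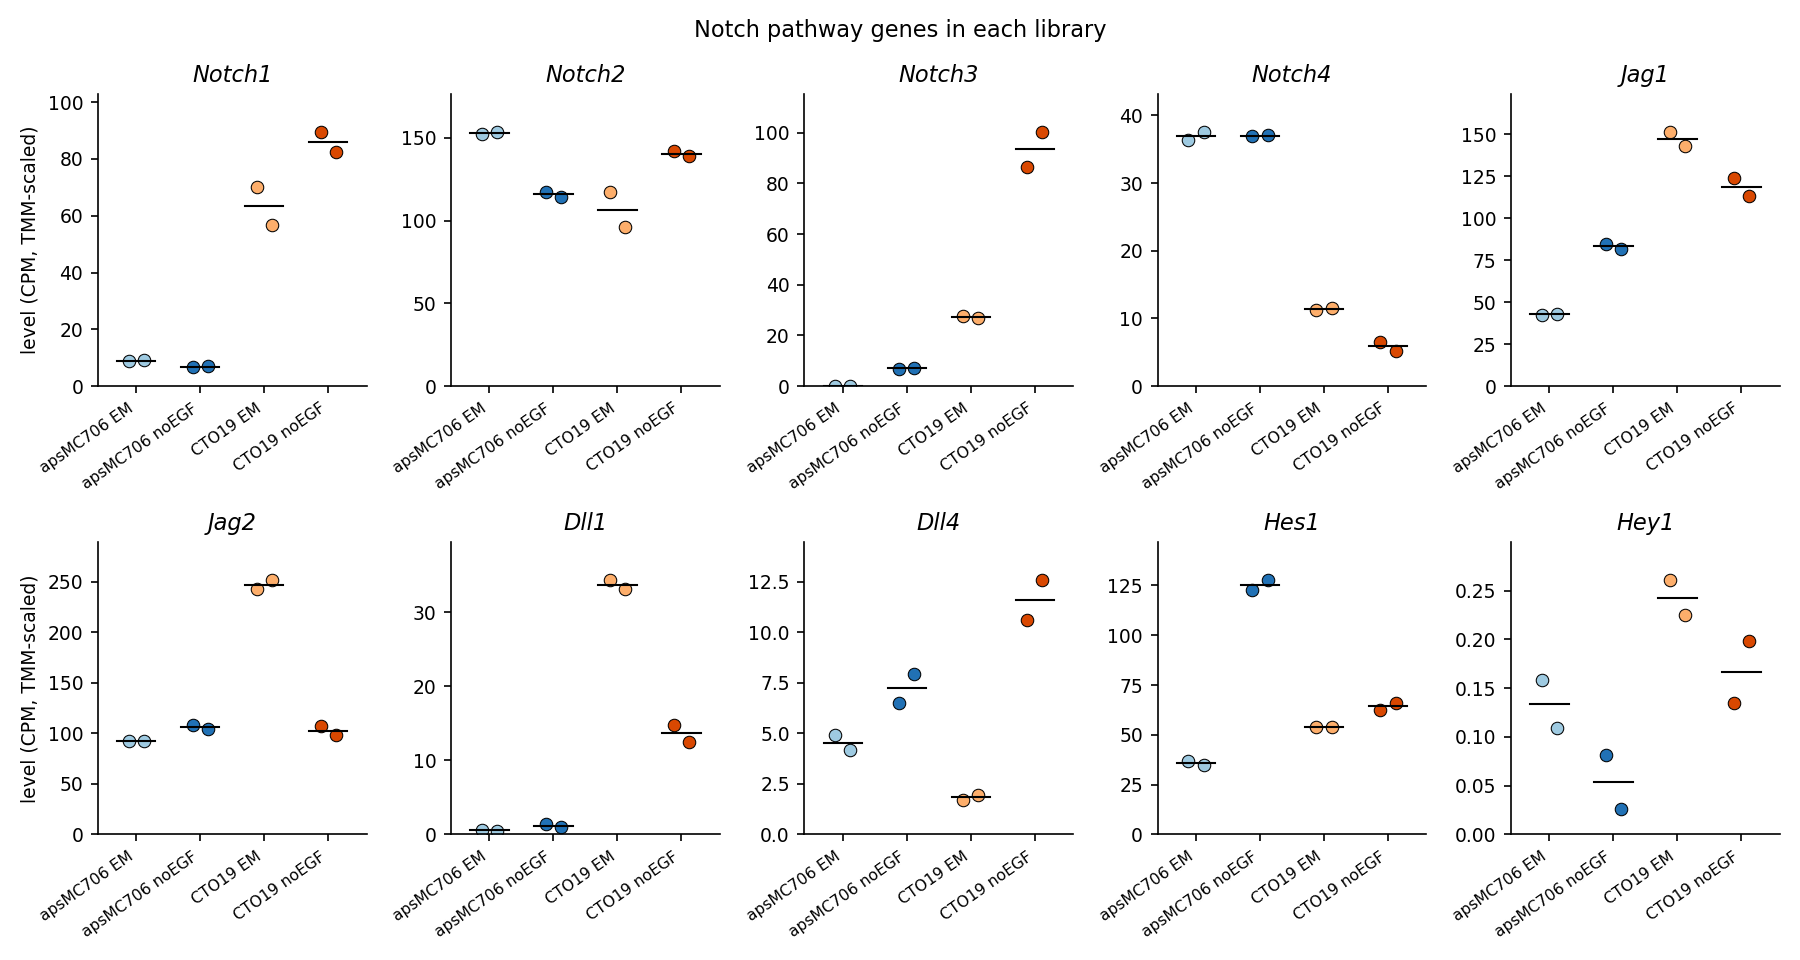
Level of each of the 10 genes in every library, in TMM-scaled CPM on a linear axis from 0 that differs between panels, by line and medium. Points are libraries and horizontal lines are the means of the 2 libraries of a group; Notch3 is near 0 in apsMC706 EM and highest in CTO19 noEGF, and Jag2 is highest in CTO19 EM.

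Levels of different genes were compared per kilobase of merged exon. On that scale Notch2 was the most abundant receptor in all 8 libraries, with 72.8% to 73.3% of the summed receptor level in apsMC706 EM and 63.8% to 65.0% in apsMC706 noEGF. Its share in CTO19 was 52.8% and 50.4% in EM and 42.5% and 40.7% in noEGF. Notch3 went from 0.136% and 0.121% of the receptor sum to 4.97% and 5.45% in apsMC706, and from 16.5% and 18.9% to 34.6% and 39.0% in CTO19. Notch4 held 23.4% and 23.8% in apsMC706 EM and 27.3% and 27.8% in apsMC706 noEGF, against 2.03% to 8.13% over the CTO19 libraries. The receptor sum itself was 19.3 and 19.6 CPM per kb in apsMC706 EM and 16.8 and 16.6 in noEGF. In CTO19 it was 20.6 and 17.7 CPM per kb in EM and 31.0 and 31.8 in noEGF. The 2 lines thus had sums of like size in EM and sums that lay apart in noEGF, as values with no test.

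The Jagged ligands also moved in opposite directions in the lines. Jag1 (ENSMUSG00000027276, chromosome 2, 137081456 to 137116644) was at 42.6 and 43.1 CPM in EM and 84.6 and 81.7 CPM in noEGF in apsMC706. In CTO19 it was at 151 and 143 CPM in EM and 124 and 113 CPM in noEGF. All CTO19 libraries were above all apsMC706 libraries, and the media lay apart in each line. Jag1 rose 1.94-fold in apsMC706 (log2 fold change 0.96, SE 0.0522, adjusted p = 4.81e-10) and fell 1.24-fold in CTO19 (-0.31, SE 0.0483, adjusted p = 4.31e-05). The responses differed by -1.27 (SE 0.0711, adjusted p = 2.25e-09).

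Jag2 (ENSMUSG00000002799, chromosome 12, 112907819 to 112929776), the second Jagged ligand, was at 92.2 and 92.9 CPM in EM and 108 and 104 CPM in noEGF in apsMC706. CTO19 held 242 and 251 CPM in EM and 108 and 98.1 CPM in noEGF. The CTO19 EM libraries stood above the other 6, and the noEGF libraries of the lines overlapped. Jag2 rose 1.14-fold in apsMC706 (0.20, SE 0.0476, adjusted p = 0.00209) and fell 2.40-fold in CTO19 (-1.26, SE 0.0469, adjusted p = 1.90e-11), with a difference of -1.46 between the responses (SE 0.0667, adjusted p = 3.28e-10).

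Dll1 (ENSMUSG00000014773, chromosome 17, 15367354 to 15376872), the Delta ligand of secretory precursors in the gut, was scarce in apsMC706. It had 24 and 18 counts in EM (0.635 and 0.490 CPM) and 52 and 37 in noEGF (1.42 and 0.977 CPM). In CTO19 it was at 34.3 and 33.1 CPM in EM and 14.7 and 12.5 CPM in noEGF, so the lower medium of CTO19 was still above every apsMC706 library. Dll1 rose 2.11-fold in apsMC706 (1.08, SE 0.271, adjusted p = 0.00257) and fell 2.47-fold in CTO19 (-1.31, SE 0.0899, adjusted p = 9.50e-09). The responses differed by -2.39 (SE 0.283, adjusted p = 4.59e-06).

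Dll4 (ENSMUSG00000027314, chromosome 2, 119325784 to 119335962) was the ligand that rose in both lines. It was at 4.89 and 4.19 CPM in EM and 6.52 and 7.92 CPM in noEGF in apsMC706, and at 1.71 and 1.97 CPM in EM and 10.6 and 12.6 CPM in noEGF in CTO19. CTO19 was therefore the lower line in EM and the higher in noEGF, with no overlap in either medium. The rise was 1.59-fold in apsMC706 (0.67, SE 0.136, adjusted p = 0.000496) and 6.30-fold in CTO19 (2.66, SE 0.152, adjusted p = 1.38e-09), and the responses differed by 1.99 (SE 0.210, adjusted p = 1.42e-06). Exons of Dll4 overlap the antisense gene Gm14207 over 214 bases. Gm14207 had 13 and 11 counts in apsMC706 EM and 124 and 113 in apsMC706 noEGF, and 4 and 5 counts in CTO19 EM and 52 and 64 in CTO19 noEGF. The library kit did not mark the strand, so reads of the shared bases cannot be told apart.

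**Figure D2:**
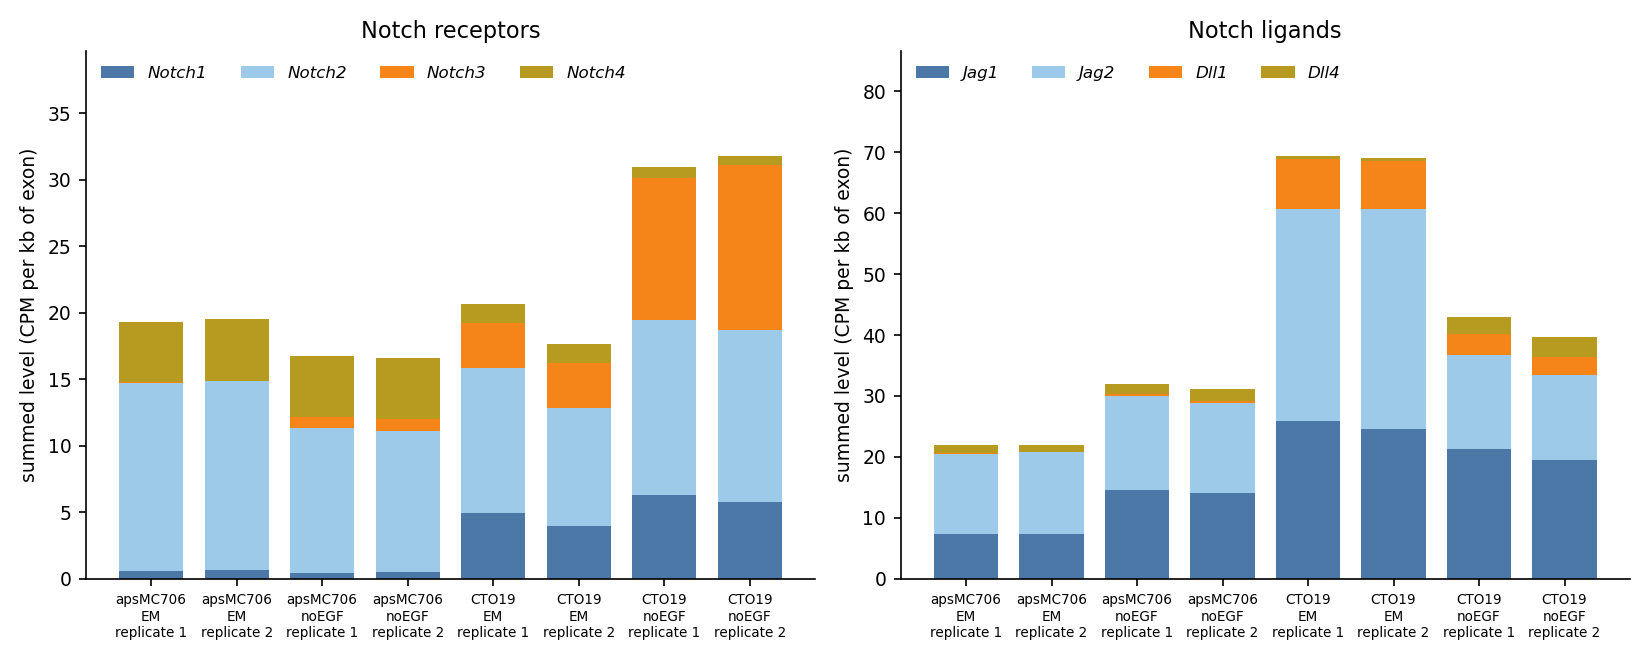
Summed level of the 4 receptors (left) and the 4 ligands (right) in each library, in CPM per kb of exon, with 1 coloured segment for each gene. The Notch3 segment is larger in noEGF in both lines, and the ligand sum is 69.3 and 69.0 in CTO19 EM and 43.0 or less in the other 6 libraries.

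Per kilobase, the 4 ligands together went from 22.0 and 21.9 to 32.0 and 31.2 CPM per kb in apsMC706 and from 69.3 and 69.0 to 43.0 and 39.7 in CTO19. Jag1 and Jag2 made up most of that sum in every library. Jag2 was the larger share in EM in both lines, at 60.3% and 60.8% in apsMC706 and 50.2% and 52.3% in CTO19. In CTO19 noEGF Jag1 was the larger, with 49.5% and 48.9% against 35.9% and 35.4% for Jag2. In apsMC706 noEGF the shares were near each other, with 45.3% and 44.9% for Jag1 and 48.4% and 47.8% for Jag2.

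Hes1 (ENSMUSG00000022528, chromosome 16, 30064384 to 30067796), the effector that represses Atoh1 in the intestinal epithelium, rose in both lines and by unequal amounts. It was at 37.0 and 34.9 CPM in EM and 123 and 128 CPM in noEGF in apsMC706, and at 53.9 and 54 CPM in EM and 62.7 and 66.2 CPM in noEGF in CTO19. The groups did not overlap, and the order of the lines was reversed between the media. Hes1 rose 3.48-fold in apsMC706 (1.80, SE 0.0487, adjusted p = 4.83e-13) and 1.19-fold in CTO19 (0.26, SE 0.0481, adjusted p = 0.000261). The difference between the responses was -1.54 (SE 0.0682, adjusted p = 2.48e-10). Per kilobase Hes1 was the most abundant of the 10 genes in apsMC706 EM (17.6 ± 0.737 CPM per kb, SD, n = 2), apsMC706 noEGF (61.4 ± 1.72) and CTO19 noEGF (31.6 ± 1.23). In CTO19 EM it came second (26.5 ± 0.0156) to Jag2 (35.5 ± 0.905), and Jag1 came next (25.3 ± 0.968).

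Hey1 (ENSMUSG00000040289, chromosome 3, 8663359 to 8667256), an effector best known from vessels and heart, had 6 and 4 counts in apsMC706 EM, 3 and 1 in apsMC706 noEGF, 9 and 8 in CTO19 EM and 5 and 8 in CTO19 noEGF. A difference between media was not detectable at this depth. With no filter on low counts its log2 fold change was -1.21 in apsMC706 (adjusted p = 0.306) and -0.54 in CTO19 (adjusted p = 0.548).

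Counted together, 6 of the 9 tested members rose and 2 fell in apsMC706, where 67.2% of all tested genes passed the threshold (34.1% higher and 33.1% lower). In CTO19 5 rose and 4 fell, against 68.0% of all genes (34.7% higher and 33.3% lower). The median log2 fold change of the 9 was 0.67 in apsMC706 and 0.26 in CTO19, beside 0.00 and 0.02 over all tested genes. Of the 9, 8 passed in both lines. Notch3, Dll4 and Hes1 moved the same way, and Notch1, Notch2, Jag1, Jag2 and Dll1 moved opposite ways, which is 62.5% of the 8. Notch1 is counted only through its apsMC706 call (adjusted p = 0.0476), which several alternatives lost, as given above. Over all genes 8171 passed in both lines and 27.2% of these moved opposite ways. The direct test of the difference between the responses passed for all 9 members, with CTO19 the more positive in 3 (Notch1, Notch2 and Dll4) and the more negative in 6, where 56.0% of all genes passed (30.4% and 25.6%).

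**Figure D3:**
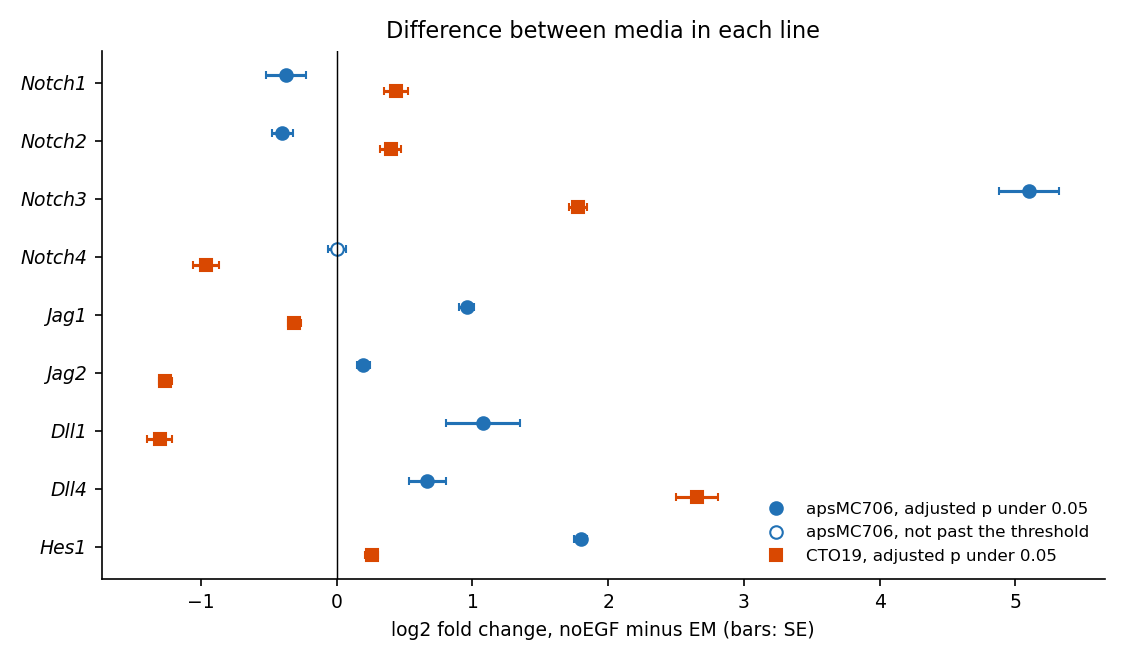
Log2 fold change of noEGF against EM for the 9 tested genes in apsMC706 (circles) and CTO19 (squares), with bars for the SE and open symbols where the adjusted p was not under 0.05. Notch3, Dll4 and Hes1 lie right of 0 in both lines, and Notch1, Notch2, Jag1, Jag2 and Dll1 lie on opposite sides.

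Over both lines, in a fit of line plus medium, where unequal responses of the lines add to the spread, 3 of the 9 rose and 0 fell, where 48.8% of all genes passed (25.5% higher and 23.3% lower). Notch3 was 6.61-fold higher (2.72 on the log2 scale, SE 0.533, adjusted p = 0.00511), with 4 of 4 noEGF libraries above the EM libraries of their line. For Dll4 the rise was 3.09-fold (1.63, SE 0.403, adjusted p = 0.0134), also in 4 of 4. Its call was lost without CTO19 EM replicate 2 (1.38, adjusted p = 0.0503). For Hes1 it was 2.04-fold (1.03, SE 0.300, adjusted p = 0.0256), also in 4 of 4. Leaving out any apsMC706 library ended that call, with adjusted p = 0.0822 without EM replicate 1, 0.0784 without EM replicate 2, 0.0541 without noEGF replicate 1 and 0.0517 without noEGF replicate 2.

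The other 6 members did not pass over both lines. Their log2 fold changes were 0.06 for Notch1 (adjusted p = 0.806), -0.00 for Notch2 (0.996), -0.46 for Notch4 (0.0935), 0.32 for Jag1 (0.319), -0.54 for Jag2 (0.156) and -0.46 for Dll1 (0.434). With limma-voom Dll1 passed (-1.06, adjusted p = 0.0194). When the libraries of each line and medium were summed, which leaves the line as the unit of replication, edgeR called 0 of the members. That fit called only 84 of 18170 genes (0.462%), so the 0 is no trait of the members. In it 2 members had an unadjusted p under 0.05. The separate libraries gave 3 calls with the DESeq2 Wald test and 4 with limma-voom, where 50.8% and 50.6% of all genes passed.

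The lines differed in most members in each medium. In EM 6 of the 9 were higher and 3 lower in CTO19, where 71.3% of all genes passed (37.5% higher and 33.8% lower). Notch3 was 133-fold higher (log2 difference 7.06, SE 0.167, adjusted p = 2.97e-14), Dll1 59.5-fold higher (5.89, SE 0.151, adjusted p = 4.62e-14) and Notch1 7.12-fold higher (2.83, SE 0.112, adjusted p = 1.36e-08). Jag1 (1.78), Jag2 (1.42) and Hes1 (0.59) were also higher, and Notch4 (-1.69), Dll4 (-1.30) and Notch2 (-0.52) were lower. Per kilobase, Notch3, Dll1 and Notch1 were the 3 tested members that apsMC706 EM held at the lowest levels.

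In noEGF 6 members were higher and 2 lower in CTO19, where 80.0% of all genes passed (45.7% higher and 34.3% lower). Notch3 was 13.3-fold higher (3.73), Notch1 12.5-fold (3.65) and Dll1 11.4-fold (3.51), and Dll4 (0.68), Jag1 (0.51) and Notch2 (0.28) were higher as well. Notch4 (-2.66) and Hes1 (-0.96) were lower. Jag2 differed by -0.04 (SE 0.0474, adjusted p = 0.409), and it passed with upper-quartile factors (-0.14, adjusted p = 0.0156), with no filter (-0.13, 0.00727), with a stricter filter (-0.12, 0.0321) and without CTO19 noEGF replicate 1 (-0.20, 0.00109). Without noEGF replicate 1 or 2 of CTO19 the call of Notch2 ended (adjusted p = 0.218 and 0.159).

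Genes whose levels followed a member over the 8 libraries were named by Pearson's r of log2 CPM among 10814 genes. This is a description over points that share 2 lines and 2 media. For Notch1 they were Zbtb7c (0.999), Jup (0.999) and Lipa (0.998), and 808 genes had an r over 0.95. For Notch3 they included Birc3 (0.998) and Emp2 (0.997), with 370 genes over 0.95. For Hes1 they were Gadd45a (0.996), Slc30a9 (0.995) and Nat9 (0.993), with 110. The Hes1 pattern, with the highest level in apsMC706 noEGF, was seen in Gadd45a, a stress-induced growth arrest gene, with mean levels of 5.17 and 35.1 CPM in the 2 media of apsMC706 and 8.98 and 11.1 CPM in those of CTO19.

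A list of 67 further genes, drawn up as genes of the pathway, was followed, of which 55 were tested. The 55 include Jagn1, which is not a Notch ligand. In apsMC706 21 of them rose and 18 fell, where 34.1% of all tested genes rose and 33.1% fell. In CTO19 30 rose and 8 fell, against 34.7% and 33.3% of all genes, and over both lines 18 rose and 7 fell, against 25.5% and 23.3%. The share called, in either direction, was thus close to that of all genes in each line (67.2% and 68.0%). Of the 55, 29 passed in both lines (52.7%, against 48.9% of all genes), and 12 of these moved opposite ways (41.4%, against 27.2%). The lists below are small, and their counts are given beside the same shares of all genes.

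Of the 10 proteases and gamma-secretase subunits that process the receptor, 4 rose and 3 fell in apsMC706 (67.2% of all genes passed), and 7 rose and 1 fell in CTO19 (68.0%). Adam10, the main protease of ligand-activated Notch, was at 243 and 244 CPM in EM and 351 and 354 CPM in noEGF in apsMC706, and at 217 and 210 CPM in EM and 241 and 289 CPM in noEGF in CTO19. Over both lines it rose 1.34-fold (0.43, SE 0.0808, adjusted p = 0.00444). The gamma-secretase subunits Aph1c (1.77-fold, adjusted p = 0.000389) and Aph1b (1.41-fold, adjusted p = 0.0161) were higher as well. Nicastrin (Ncstn) rose in CTO19 by 0.47 (adjusted p = 1.1e-07), and in apsMC706 its log2 fold change was 0.00 (adjusted p = 0.95). Adam17 fell in apsMC706 by 0.42 on the log2 scale (adjusted p = 2.99e-07). Exons of Adam17 and Ncstn overlap Iah1 and Copa on the other strand.

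Of the 5 glycosyltransferases that modify the receptor, 2 rose and 3 fell in apsMC706 and 1 rose and 2 fell in CTO19, where 67.2% and 68.0% of all genes passed. Lfng, the Fringe enzyme that shifts receptors toward Delta ligands, had the largest opposite change among them. It was at 20.6 and 21.9 CPM in EM and 6.84 and 8.08 CPM in noEGF in apsMC706, and at 20.6 and 20.1 CPM in EM and 51.5 and 54.9 CPM in noEGF in CTO19. In EM both apsMC706 libraries were slightly above the CTO19 libraries, and in noEGF CTO19 was far above. Lfng fell 2.84-fold in apsMC706 (-1.51, SE 0.0811, adjusted p = 4.16e-10) and rose 2.61-fold in CTO19 (1.39, SE 0.0659, adjusted p = 2.08e-10), and the responses differed by 2.89 (SE 0.104, adjusted p = 3.51e-11). Pofut1, which adds the fucose that Fringe extends, fell 1.45-fold in apsMC706 (adjusted p = 1.56e-07), and Poglut1 rose 1.30-fold in apsMC706 and fell 1.35-fold in CTO19.

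Among 7 tested genes listed under ligand endocytosis and atypical ligands, 3 rose and 3 fell in apsMC706 (67.2% of all genes called). In CTO19 2 rose and 2 fell (68.0% of all genes called). The 7 include Jagn1, which is not a Notch ligand. Jagn1 was among those that fell in CTO19 (log2 fold change -0.29, adjusted p = 0.000313). Mib2, a ubiquitin ligase that drives ligands into the cell, was at 6.59 and 6.10 CPM in EM and 32.5 and 30.2 CPM in noEGF in apsMC706, and at 8.13 and 8.12 CPM in EM and 14 and 14.1 CPM in noEGF in CTO19. It rose 4.94-fold and 1.73-fold (2.93-fold over both lines, adjusted p = 0.00486). Neurl1a, a ligase of the same step, rose 3.39-fold and 1.41-fold, and Neurl1b fell 2.04-fold in apsMC706 (adjusted p = 6.84e-05) with overlapping libraries in CTO19.

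Of 10 genes of receptor turnover, 5 rose and 4 fell in apsMC706, where 34.1% of all genes rose and 33.1% fell, and 9 rose and 0 fell in CTO19, where 34.7% rose and 33.3% fell. Dtx3, a Deltex ligase, rose 3.98-fold in apsMC706 and 1.28-fold in CTO19, and Nedd4, a ubiquitin ligase of membrane proteins, rose 1.71-fold and 1.18-fold. Dtx4 fell 1.18-fold in apsMC706 and rose 2.25-fold in CTO19. Numbl, a homologue of the Notch inhibitor Numb, rose 1.45-fold and 1.68-fold (1.57-fold over both lines, adjusted p = 0.000957).

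In the nuclear complex of 14 genes, 5 rose and 2 fell in apsMC706 and 7 rose and 2 fell in CTO19, no larger a share than the 67.2% and 68.0% of all genes that passed. Rbpj, the DNA-binding partner of every Notch receptor, was at 65.4 and 66.1 CPM in EM and 73.5 and 73.9 CPM in noEGF in apsMC706, and at 124 and 116 CPM in EM and 76.1 and 78.4 CPM in noEGF in CTO19. It rose by 0.16 in apsMC706 (adjusted p = 0.00519) and fell by 0.63 on the log2 scale in CTO19 (adjusted p = 1.16e-08), so that the lines lay close in noEGF. The Mastermind coactivators Maml2 and Maml3 rose 1.80-fold and 1.31-fold in apsMC706 and 1.17-fold and 2.23-fold in CTO19. Hdac1, a deacetylase of the repressor complex, fell 2.10-fold in apsMC706 and rose 1.12-fold in CTO19.

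Among 11 further effectors and targets 5 were tested, of which 2 rose and 1 fell in each line (67.2% and 68.0% of all genes passed), and Hes5 had 0 counts in all 8 libraries. Nrarp, a feedback target of Notch, was at 5.05 and 5.80 CPM in EM and 6.68 and 6.18 CPM in noEGF in apsMC706 (adjusted p = 0.0863), and rose 1.61-fold in CTO19, from 11.1 and 11 to 16.1 and 19.4 CPM (adjusted p = 1.78e-05). Its difference between media was thus the larger in CTO19 (0.44, SE 0.155, adjusted p = 0.0246), where that of Hes1 was the smaller. Hes6, which antagonises Hes1, fell 1.40-fold in apsMC706 and rose 2.19-fold in CTO19. Bhlhe40, which overlaps 0610040F04Rik on the other strand, rose 1.77-fold and fell 1.34-fold. Sox9, a progenitor gene of the crypt, rose 1.38-fold in apsMC706 (adjusted p = 0.00162).

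A list of 7 transcription factors of secretory, endocrine and tuft cells of the intestine held those listed as restrained by Notch there. Of the 7, 4 were tested, with 0 higher and 2 lower in apsMC706 and 2 higher and 0 lower in CTO19. That was a smaller share than the 67.2% and 68.0% of all genes. In apsMC706 Insm1, an endocrine factor, fell 3.21-fold, from 85.4 and 83.7 to 27.0 and 25.7 CPM (adjusted p = 6.37e-12). Atoh1 went from 3.57 and 3.68 CPM to 0.273 and 0.132 CPM there (log2 fold change -4.15, adjusted p = 2.79e-08). In CTO19 Atoh1 had at most 0.0562 CPM, under the level of 3 counts. There Spdef, a goblet cell factor of the gut, went from 0.203 and 0.169 to 1.1 and 1.32 CPM (2.69, adjusted p = 2.94e-06). Pou2f3, in the gut the tuft cell factor, went in CTO19 from 1.42 and 1.01 to 5.46 and 5.54 CPM (2.18, adjusted p = 8.39e-08). CTO19 held near-absent colon markers and abundant squamous keratins (values below). Whether these factors have their gut roles in that line was not tested.

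**Figure D4:**
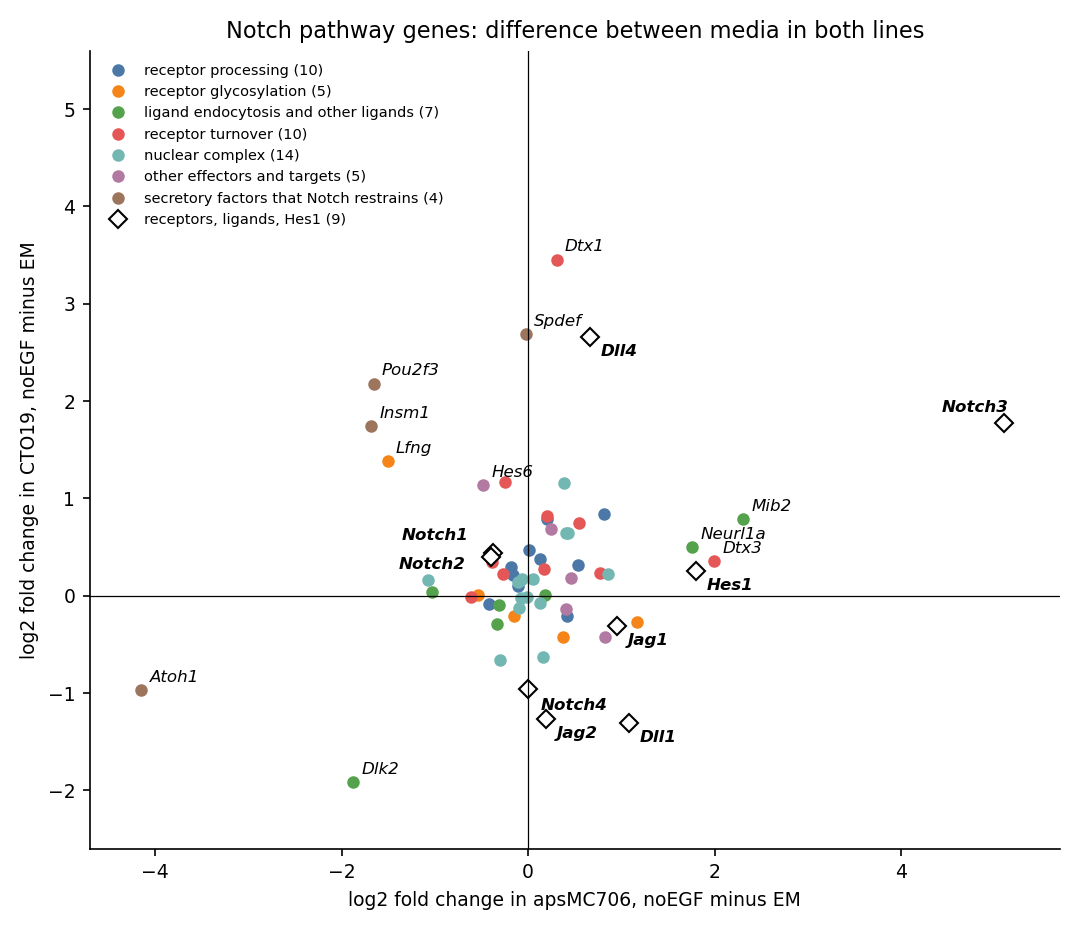
Log2 fold change of noEGF against EM in apsMC706 (horizontal) and in CTO19 (vertical) for the 55 further listed genes (coloured by list) and the 9 tested receptors, ligands and effector (open diamonds). Notch3 lies far right and above 0, and Lfng lies left of 0 and above 0.

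Markers of other cells were read beside these results. The summed level of 7 epithelial markers was 3029 to 3899 CPM in all groups. The 7 endothelial markers summed to 0.660 to 1.06 CPM in apsMC706, where Kdr was at 0 counts in all 4 libraries and Cdh5 and Emcn at 0 in EM. In CTO19 they summed to 5.67 to 6.16 CPM, with Emcn at 0 counts in both media and Kdr at 0 in noEGF. The members of this list went both ways. In CTO19 Esam rose from 2.49 and 2.84 to 3.50 and 4.02 CPM (adjusted p = 0.0406) and Tek went from 1 and 0 counts to 18 and 32 (adjusted p = 2.82e-05), while Tie1 fell 2.01-fold and Cdh5 went from 16 and 17 counts to 4 and 3 (adjusted p = 0.00153). In apsMC706 Tie1 went from 15 and 13 counts to 3 and 0, and Cdh5 from 0 and 0 to 1 and 4. The 7 pericyte and smooth muscle markers summed to 14.7 to 16.1 CPM in apsMC706 and 30.1 to 35.9 CPM in CTO19. Most of that was Acta2, at 11.3 to 12.8 CPM in apsMC706 and 27.3 to 31.8 CPM in CTO19, and Des was at 0 counts in all groups. Of the 3 that were tested, Cspg4 rose in apsMC706 (2.13-fold, adjusted p = 0.0367) and none of the 3 passed in CTO19. Among all genes 67.2% passed in apsMC706 and 68.0% in CTO19. The part of endothelial cells or pericytes in the levels of Notch3, Notch4 and Dll4 was not tested.

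Other lists moved with the line or the medium. The 6 intestinal and colon identity markers summed to 807 to 821 CPM in apsMC706 EM and 561 to 565 CPM in noEGF, but to 18.9 to 19.2 CPM in CTO19 EM, with Cdx1 and Car1 at 0 counts, and 29.5 to 35.5 CPM in CTO19 noEGF. The 8 squamous markers summed to 6.00 to 7.35 CPM in apsMC706 EM and 30.2 to 35.7 CPM in apsMC706 noEGF, and to 7715 to 7876 CPM in CTO19 EM and 6372 to 6703 CPM in CTO19 noEGF. The colon label of CTO19 thus met near-absent colon markers and abundant squamous keratins, in both media. Of the 8 squamous markers, 3 were higher and 0 lower in noEGF in apsMC706, where 34.1% of all genes were higher. In CTO19 5 were higher and 2 lower, where 34.7% and 33.3% of all genes were. In apsMC706 Sprr1a rose 22.6-fold, Ivl 16.2-fold and Dsg3 7.82-fold, and Krt5, Krt14, Krt1, Krt10 and Trp63 did not pass. In CTO19 Krt1 rose 35.8-fold, Krt10 32.3-fold and Sprr1a 8.77-fold, and Ivl and Dsg3 also rose. The basal genes Krt5 and Trp63 fell there 1.70-fold and 1.99-fold, and Krt14 did not pass. All 6 markers of cycling cells fell in noEGF in each line, where 33.1% (apsMC706) and 33.3% (CTO19) of all genes were lower. Their sum went from 2699 to 2754 CPM down to 1004 to 1011 CPM in apsMC706. In CTO19 it went from 2112 to 2321 CPM down to 1242 to 1337 CPM. Of the 5 immune markers Cd68 alone was tested. It rose from 1.14 and 1.39 to 7.69 and 7.55 CPM in apsMC706 and was at 4.35 to 5.49 CPM in CTO19, while the leukocyte gene Ptprc had at most 5 counts in any library. Of the 6 fibroblast markers, Col3a1 rose from 3.81 and 3.89 to 7.12 and 8.56 CPM in apsMC706, where Dcn went from 1 and 0 to 13 and 3 counts (adjusted p = 0.00584). In CTO19 Dcn rose from 0.116 and 0.0843 to 10.3 and 9.49 CPM and Pdgfra fell 1.57-fold. The part of these shifts in the results on the Notch genes was not tested, and in bulk RNA fewer cells of a type and less RNA per cell cannot be told apart.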

How the data were processed

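Poly(A)-selected RNA of 8 organoid libraries was measured, 2 in each group of line and medium. Per the labels, libraries were made with a kit that does not mark the strand. Per the submitters' processing notes, alignment by the authors used STAR 2.7.0a and mm10, and they deposited raw counts per Ensembl gene. The program that counted reads, with its strand setting and annotation, is not given in the sources used here. Of 32728 genes, 32680 were found in GENCODE M21 (GRCm38), which gave names, positions, overlaps and exon lengths, 48 were not found, and 7747 had no count.

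The analysis used R 4.3.3 and edgeR 4.0.16. The filter filterByExpr over the 4 groups kept 16719 genes with 99.97% of counts. Scaling used TMM factors. Robust quasi-likelihood F-tests were adjusted by the Benjamini-Hochberg method over all tested genes, with a threshold of 0.05. A model of the 4 group means (residual degrees of freedom 4, coefficient of biological variation 4.27%) gave each line's response, the test between responses and the line differences. A model of line plus medium (residual degrees of freedom 5, 16.9%) gave the response over both lines. Log2 fold changes are noEGF minus EM, or CTO19 minus apsMC706. The models were also run on simulated data with the same spread for all genes and few changed genes. That setting differs from these data, so no conclusion is drawn from it. Log2 CPM for correlations had a prior count of 2. Floors of 3 counts cover counting error only, because amplified reads carried no molecular identifiers and are not independent molecules.

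Within each group the replicates differed beyond sampling noise (chi-square per degree of freedom 3.38 to 10.5). Alternatives were DESeq2 1.42.0 size factors and Wald test, upper-quartile factors, no filter, at least 1 CPM in at least 4 libraries, voom of limma 3.58.1, a replicate block, an adjusted p under 0.01, summed libraries and each library left out.

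The members, gene lists, tests and alternatives were chosen with earlier results of these data known. All 10 members are named. Of each further list, those named came from the up to 3 genes of smallest p past the threshold in each contrast of the media. For Notch1, Notch3 and Hes1 the 3 genes of highest correlation are named, from genes whose mean log2 CPM was 1 or more, except 1 gene that is not reported here. Genes named outside this rule are the targeted genes, Hes5, Dlk2 in a plot, the marker genes and the overlapping genes.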

Additional observations from a re-analysis of the deposited data

Results flagged for a closer look

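Whether the lines responded unequally to the medium (response of CTO19 minus that of apsMC706, log2 scale) was tested for each tested member, and all 9 passed. CTO19 had the more positive response in Notch1 (0.81), Notch2 (0.80) and Dll4 (1.99). It had the more negative response in Notch3 (-3.33), Dll1 (-2.39), Hes1 (-1.54), Jag2 (-1.46), Jag1 (-1.27) and Notch4 (-0.96). Among all tested genes 56.0% passed the same test, so a difference between the lines was common.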

How the results depend on the processing

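Of 873 values of members under an alternative, 830 kept their direction and side of the threshold, 23 lost their call, 5 gained one and 15 changed sign. Over both lines the count of members called, 3, was 1 at an adjusted p under 0.01, where 30.6% of all genes passed. It was 0 with summed libraries, where 0.462% of all genes passed. There Notch3 was 3.16 (adjusted p = 0.293), Dll4 1.64 (0.238) and Hes1 1.01 (0.312) in edgeR's test. Summing leaves fewer samples. Leaving out a library gave 2 to 3 over both lines, where 40.2% to 43% of all genes passed. In the other comparisons it can leave 1 library in a group, so those counts are not given. There the lone library of a group was assumed to vary like the other groups. Same-numbered replicates did not deviate together (correlations from -0.00825 to 0.0485) and share only a number; with the replicate block the counts were unchanged for the 6 comparisons, and over both lines 6988 genes were called against 8157. Sign changes concerned values near 0. Notch2 over both lines was 0.0315 with DESeq2 size factors, 0.0399 with upper-quartile factors, 0.0222 with no filter, 0.0747 with the stricter filter, 0.0316 with the Wald test and 0.00443 with voom. With each library left out it ranged from -0.147 to 0.093, and Notch1 over both lines from -0.0982 to 0.163 (below 0 without CTO19 EM replicate 2). Notch4 in apsMC706 ranged from -0.0322 to 0.0911. The cause was not tested. Depth limits Hey1, with at most 9 counts in a library.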
